A study of Saccharomyces cerevisiae with 21 samples.

Results

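The 35 genes described here encode nuclear-encoded subunits of the yeast respiratory chain and of the mitochondrial ATP synthase. They were picked by name from 5656 genes that had a probe set of their own on an Affymetrix yeast genome array, and all 35 were among the 5461 genes tested. The list holds 3 NADH dehydrogenases, 4 subunits of complex II, 9 of complex III, 8 of complex IV, 5 of the F1 part of ATP synthase and 6 of its F0 part and stalk. The study grew Saccharomyces cerevisiae in chemostats, continuous cultures in which the dilution rate sets the growth rate and 1 nutrient limits growth. All cultures were titled anaerobic and were held at pH 5, with 0.1 culture volumes exchanged per h. The 21 arrays form 7 groups of 3 cultures. The wild type was limited for nitrogen (N), sulfur (S), phosphorus (P), zinc (Zn) or carbon (C, as glucose). A double mutant of MSN2 and MSN4, which encode stress transcription factors, was limited for N or for C. Residual glucose was aimed at 17 g/L in every culture except the C-limited ones, and glucose excess is thereby set against scarcity wherever C limitation is the comparison. The wild type was the haploid CEN.PK113-7D (MATa MAL2-8c SUC2), and the mutant carried ura3, msn2::loxP, msn4::loxP-kanMX-loxP and a plasmid with URA3.

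The respiratory chain passes electrons from NADH and succinate through ubiquinone, complex III, cytochrome c and complex IV to oxygen, and complexes III and IV pump protons across the inner mitochondrial membrane. ATP synthase turns that proton gradient into ATP in its F1 head, driven by the F0 rotor and held by a stalk. S. cerevisiae has no proton-pumping complex I: single-subunit NADH dehydrogenases on either face of the membrane take its place. Genes of the chain are known to be repressed by glucose and to need oxygen and heme for high expression, partly through the activator subunit Hap4, and without oxygen the ATP synthase can run backwards and spend ATP. Array signals measure transcript abundance within an RNA sample of the whole culture, so fewer cells that express a gene and less RNA per cell cannot be told apart.

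Arrays differed in ways that bear on the values below. MSN2 signal lay at 12.0 to 13.7 on the mutant arrays and at 58.0 to 147 on the wild-type arrays, while MSN4 lay at 34.5 to 55.6 on the mutant and 47.3 to 153 on the wild-type arrays. The ranges were separate for MSN2 and overlapped for MSN4. Replicate 1 of the arrays labelled C-limited msn2 msn4 correlated best with N-limited msn2 msn4 replicate 1 (r = 0.9767 across the genes tested, which are not independent replicates), and DAL5, an allantoate permease gene used under poor nitrogen supply, read 1337 on it, against 83.5 and 109 on the other arrays of its group. It was kept as labelled, and the mutant comparisons that use it are given with and without it. The fit shares 1 spread per gene over all 7 groups. This array therefore also enters the standard errors and p-values of the wild-type comparisons, which are given with it. It stayed as well in the fits that left out another array. Of the anaerobic markers 10 were measured and none lay at the floor on any array. Their summed signal ranged over 13472 to 15874 in N, 17387 to 39838 in S, 18596 to 28961 in P, 14359 to 15749 in Zn and 22130 to 25132 in C limitation. For the N-limited wild type the growth description also mentions sparging with air and glucose limitation, and their titles were followed here in taking these cultures as anaerobic and N-limited. Wild-type arrays under C, under N and under Zn limitation came from 3 separate deposits, and the other 12 arrays share 1 deposit. Of the comparisons made here, only P with S limitation and the mutant groups with each other lie inside 1 deposit. In all other comparisons group and deposit cannot be told apart. Actin signal near the 3′ end over that near the 5′ end, a ratio that grows as RNA degrades, was 1.18 to 1.23 in N, 1.30 to 1.37 in S, 1.22 to 1.41 in P, 1.31 to 1.47 in Zn and 1.05 to 1.20 in C limitation of the wild type. Its part in the results was not tested.

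Transcripts of the chain and of ATP synthase were lower under each of the other 4 limitations than under C limitation in the wild type. Genes were called where the fold reached 2 and the adjusted p from limma was below 0.05. Under N limitation 18 of the 35 genes fell, against 3.85% of all genes tested. Under S limitation 26 fell, against 6.17%. Under P limitation 31 fell, against 7.73%, and under Zn limitation 25 fell, against 5.71%. None of the 35 was called higher in any of the 4 comparisons by limma, beside 6.54%, 4.67%, 3.94% and 9.05% of all genes in the order N, S, P and Zn. An unadjusted p under 0.05 was reached in either direction by 26, 31, 34 and 29 of them. The labels state independent replicate cultures for every group but the C-limited wild type, whose spread may be technical. The p-values rest on 1 spread per gene shared by all groups, the mutant groups included, and not on that of the C-limited samples alone. The median log2 difference of the 35 genes was -1.12 under N, -1.31 under S, -1.64 under P and -1.38 under Zn limitation, beside medians over all genes of 0.10, -0.05, -0.16 and 0.05. The 3 arrays of a limitation all lay below the 3 C-limited arrays for 29 genes under N, 32 under S, 34 under P and 31 under Zn limitation, against 18.5%, 22%, 27.7% and 22.1% of all genes. The 4 comparisons share the C-limited arrays and are not independent of each other. Each array of both groups compared was left out in turn, and so was C-limited msn2 msn4 replicate 1. Throughout these fits the call held for 12 of the 18 genes under N, 21 of 26 under S, 25 of 31 under P and 18 of 25 under Zn limitation. The remaining arrays also enter the shared spread and were not left out for these counts. The calls that were lost in at least 1 case were those of SDH1, QCR9, QCR10, COX7, COX8 and ATP16 under N and of SDH2, QCR2, QCR6, QCR9 and ATP16 under S limitation. Under P limitation they were those of CYT1, QCR2, QCR9, COX6, ATP2 and ATP5, and under Zn limitation those of QCR7, QCR10, COX8, ATP2, ATP5, ATP7 and ATP14. Without C-limited msn2 msn4 replicate 1, which enters the shared spread, the counts were 19, 27, 31 and 25 under N, S, P and Zn limitation. With arrays scaled to a common median the counts were 26, 25, 26 and 28, so the order of the limitations by count rests on the scaling. With signals taken as deposited, without scaling, only 6 genes were called under Zn limitation, where the median over all genes was 0.86 and that of the members -0.57.

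**Figure D1:**
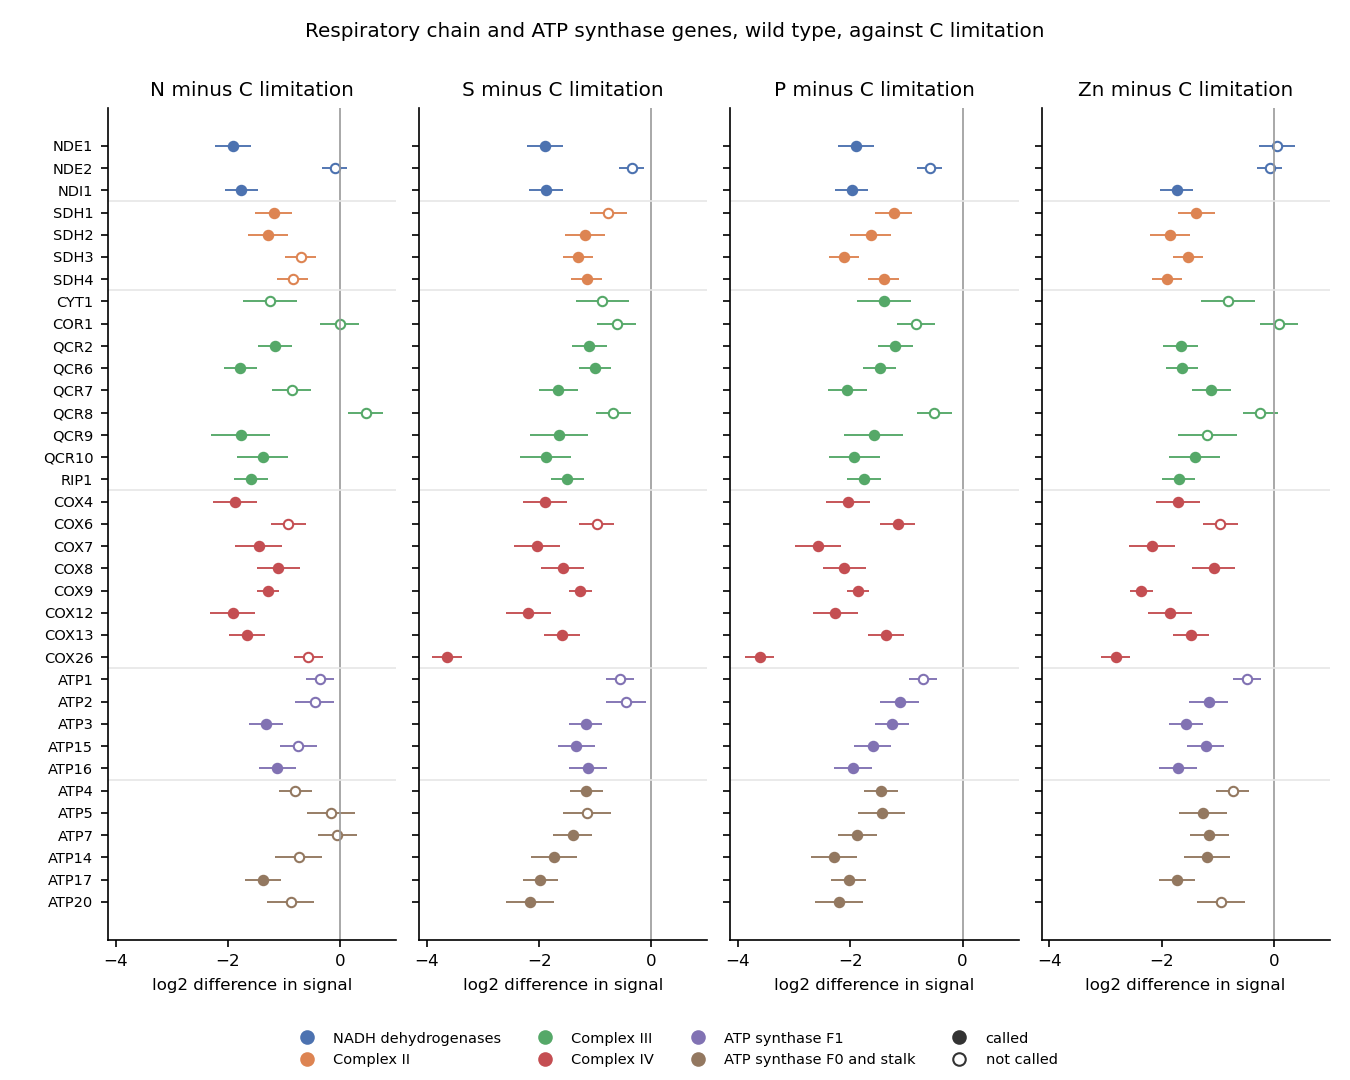
Log2 difference in signal between each of 4 limitations and C limitation in the wild type (horizontal axis, 1 panel per limitation) for the 35 genes, with bars of 1 standard error from limma and n = 3 arrays a group. Filled points were called, open points were not, and colours mark the complex. Nearly all points lie left of 0, and NDE2, COR1, QCR8 and ATP1 are open in all 4 panels.

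Of the 35 genes 15 fell under all 4 limitations: NDI1, SDH2, QCR2, QCR6, QCR10, RIP1, COX4, COX7, COX8, COX9, COX12, COX13, ATP3, ATP16 and ATP17. Without C-limited wild-type replicate 3 only 8 of them did, as SDH2, QCR2, QCR6, QCR10, COX7, COX8 and ATP16 lost a call, and with signals as deposited 4 did. QCR10 and COX8 also left the list without any single C-, N- or Zn-limited wild-type array. Without C-limited msn2 msn4 replicate 1 all 15 stayed. The other fits kept that array in the shared spread. COX8 read 174 on it, against 741 and 876 in the rest of its group, and QCR10 50.7, against 285 and 346. In the wild type COX8 averaged 424 ± 18.3 under N and 909 ± 23.2 under C limitation, and QCR10 128 ± 7.64 and 335 ± 19.9 (SD, n = 3). The part of that array in the lost calls was not tested. A further 10 fell under 3 limitations, 4 under 2, 2 under 1, and NDE2, COR1, QCR8 and ATP1 under none. The share of all genes that fell under all 4 limitations is not given here. It cannot exceed the 3.85% called lower under N limitation, and the 4 comparisons share the C-limited arrays. By complex, the calls under N, S, P and Zn limitation numbered 2, 2, 2 and 1 of the 3 NADH dehydrogenases, 2, 3, 4 and 4 of the 4 complex II genes, and 5, 6, 7 and 5 of the 9 complex III genes. For complex IV they numbered 6, 7, 8 and 7 of 8 genes, for F1 2, 3, 4 and 4 of 5, and for F0 and the stalk 1, 5, 6 and 4 of 6. Complex IV thus had the largest share of its genes called under N and S limitation, complexes II and IV and the F0 genes were called in full under P limitation, and complex II in full under Zn limitation. These counts by complex were made with arrays brought to the same trimmed mean and are not given for the other scalings.

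The NADH dehydrogenases did not move together. NDI1 (YML120C), which oxidises NADH inside the mitochondrion, gave signals of 64.4, 77 and 82.6 under N limitation, 50.5, 79.7 and 78.7 under S, 62.5, 81.9 and 50.8 under P and 79.1, 78.5 and 69.7 under Zn limitation, against 291, 212 and 258 under C limitation. Its highest reading under the 4 other limitations was well under its lowest C-limited reading, and it fell 3.39-fold, 3.69-fold, 3.94-fold and 3.32-fold in that order. NDE1 (YMR145C), the main external enzyme that oxidises cytosolic NADH, gave 28.8, 25.6 and 28.6 under N limitation, 22.4, 42.9 and 22.4 under S, 31.1, 23.3 and 29.6 under P and 90.4, 105 and 129 under Zn limitation, against 131, 88.6 and 95.2 under C limitation. The N-, S- and P-limited arrays lay far below the C-limited ones, with falls of 3.74-fold, 3.72-fold and 3.72-fold, while the Zn-limited arrays overlapped them (log2 0.05 ± 0.32, adjusted p = 0.933). The difference between Zn limitation and the other 3 was itself called by limma: NDE1 was higher under Zn than under N (log2 1.95 ± 0.32, adjusted p = 0.000336), S (log2 1.94 ± 0.32, adjusted p = 0.000206) and P limitation (log2 1.95 ± 0.32, adjusted p = 0.000209). NDE2 (YDL085W), the second external enzyme, stayed between 12 and 34.3 on all 21 arrays, near the floor of 12 below which signals were not distinguished, and was not called in any comparison.

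All 4 subunits of complex II, succinate dehydrogenase, which also serves the citric acid cycle, fell under P and Zn limitation. SDH2 (YLL041C), the iron-sulfur subunit, gave 463, 504 and 477 under N limitation, 609.7, 549.7 and 411 under S, 427, 322 and 394 under P and 347, 277 and 361 under Zn limitation, against 1244, 1175 and 1112 under C limitation. Each limitation lay below C limitation without overlap, and the largest fall was under Zn limitation (3.61-fold, log2 -1.85 ± 0.36, adjusted p = 0.000835). SDH3 (YKL141W), the cytochrome b subunit of the membrane anchor, gave 379, 387 and 414 under N limitation, 296, 219 and 267 under S, 188, 160.1 and 109.6 under P and 249, 232 and 191 under Zn limitation, against 705, 648 and 579 under C limitation. It fell under P (-2.11 ± 0.27), Zn (-1.53 ± 0.27) and S limitation (-1.31 ± 0.27, log2 ± standard error), and under N limitation the difference of -0.71 ± 0.27 was not called. SDH4 (YDR178W), the other membrane anchor subunit, was lowest under Zn limitation, with 236, 164 and 233, against 372, 512 and 424 under N and 650.2, 808 and 894 under C limitation. It was lower under Zn than under N limitation by limma (log2 -1.05 ± 0.27, adjusted p = 0.0123), a call that was lost without Zn replicate 2 or N replicate 2. SDH1 (YKL148C), the flavoprotein subunit that binds succinate, fell under N, P and Zn limitation (-1.19, -1.23 and -1.38 log2 units) and was not called under S limitation (log2 -0.77 ± 0.33, adjusted p = 0.105).

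Complex III, which passes electrons from ubiquinol to cytochrome c, held genes called under all 4 limitations and genes called under none. RIP1 (YEL024W), the Rieske iron-sulfur protein at its catalytic centre, gave 197, 250.5 and 263 under N limitation, 196, 321 and 247 under S, 260.2, 181 and 194 under P and 224, 195 and 237 under Zn limitation, against 710.3, 576 and 857 under C limitation. No array of the 4 limitations reached the lowest C-limited array, and RIP1 fell 3-fold, 2.82-fold, 3.38-fold and 3.24-fold. CYT1 (YOR065W), cytochrome c1, the other catalytic subunit encoded in the nucleus, had low signals throughout, at 42.4, 21.4 and 24 under P limitation against 81.6, 69.3 and 70.3 under C limitation, and was called only there (log2 -1.40 ± 0.48, adjusted p = 0.0396). That call was lost without any single C-limited array or P replicate 2 or 3 (adjusted p = 0.0751 to 0.127) and under quantile or median scaling. Among the small subunits, QCR10 (YHR001W-A) gave 128, 121 and 136 under N limitation, 90.5, 70.7 and 116 under S, 108, 67.4 and 93.6 under P and 121, 128 and 128 under Zn limitation, against 328, 357 and 319 under C limitation. It was thus lower on all 12 arrays than on any C-limited array, by 2.61-fold to 3.8-fold. QCR7 (YDR529C), a subunit on the matrix side, fell 4.15-fold under P, 3.16-fold under S and 2.16-fold under Zn limitation, and under N limitation its difference of -0.87 ± 0.35 was not called. QCR6 (YFR033C), an acidic subunit near cytochrome c1, fell under all 4 limitations, with its lowest mean under N limitation (152, 105 and 193, against 374, 631 and 527 under C limitation).

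Of the core proteins that scaffold complex III, QCR2 (YPR191W) fell under all 4 limitations, by 2.23-fold, 2.15-fold, 2.29-fold and 3.16-fold, and its partner COR1 under none. COR1 (YBL045C) gave 45.7, 81.7 and 75.7 under N limitation, 53.8, 37 and 40.0 under S, 44.6, 40.3 and 28.7 under P and 76.7, 73.6 and 61.4 under Zn limitation, against 68.1, 51.2 and 83 under C limitation. Its N- and Zn-limited arrays lay within or around the C-limited range (log2 -0.01 ± 0.34 and 0.09 ± 0.34), and its P-limited arrays lay below it without passing the test (log2 -0.83 ± 0.34, adjusted p = 0.084). QCR8 (YJL166W), a small subunit near the ubiquinone site, read 12 to 31.0 on all 21 arrays, and a second probe set for it lay at the floor on every array, so its probe sets give little information. QCR9 (YGR183C) gave 635, 738 and 88 under N limitation, and its fall there (log2 -1.77 ± 0.52, adjusted p = 0.0215) rested on replicate 3. Without that array the log2 difference was -0.78 and was not called (adjusted p = 0.0556), and the call was also lost without any single C-limited wild-type array (adjusted p = 0.0533 to 0.0586).

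Complex IV, cytochrome c oxidase, which reduces oxygen, held the largest falls. COX7 (YMR256C), a small membrane subunit, gave 419, 367 and 406 under N limitation, 259.7, 257 and 276 under S, 202, 177 and 173 under P and 300.3, 304 and 156 under Zn limitation, against 998, 1049 and 1229.6 under C limitation. The C-limited arrays stood far above all others, and COX7 fell 2.74-fold, 4.12-fold, 5.93-fold and 4.49-fold. COX12 (YLR038C), a subunit that faces the intermembrane space, gave 292, 299.7 and 313 under N limitation, 311, 249 and 199 under S, 307, 186 and 229.8 under P and 307, 344 and 297 under Zn limitation, against 1239, 1109 and 1067 under C limitation. It fell by a similar measure everywhere, from -1.85 ± 0.40 under Zn limitation and -1.91 ± 0.40 under N to -2.19 ± 0.40 under S and -2.27 ± 0.40 under P limitation, with no overlap. COX4 (YGL187C), which binds zinc in the assembled enzyme, fell 3.64-fold under N, 3.7-fold under S, 4.11-fold under P and 3.26-fold under Zn limitation. COX6 (YHR051W) stood lower on every array of the 4 limitations than under C limitation but was called only under P limitation (log2 -1.15 ± 0.31, adjusted p = 0.012), since its fold under the other 3 was below 2.

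COX9 (YDL067C) and COX26 separated the limitations from each other. COX9, a small membrane subunit, gave 538, 491 and 504 under N limitation, 462, 693 and 432 under S, 438, 278 and 328 under P and 243, 262 and 223 under Zn limitation, against 1296, 1227 and 1207 under C limitation. It was lowest under Zn limitation, where it fell 5.13-fold, and it was also lower under Zn than under N (log2 -1.08 ± 0.20, adjusted p = 0.00104) and under S limitation (log2 -1.09 ± 0.20, adjusted p = 0.000511). The call against S limitation was lost, by its fold, without S replicate 2, and with signals as deposited the difference turned to 0.40 log2 units. COX26 (YDR119W-A), a small subunit found in supercomplexes of complexes III and IV, gave 101, 102 and 111 under N limitation, 12, 13.4 and 12 under S, 14.2, 12 and 12 under P and 22.6, 23.4 and 20.4 under Zn limitation, against 94.4, 204 and 194 under C limitation. Only the N- and C-limited wild-type arrays were clearly above the floor, and S and P limitation were at least 12.5-fold and at least 12.2-fold lower than C limitation. The mutant arrays read 12, 12 and 15.2 under N limitation and 12, 25.2 and 20.5 under C limitation. The 12 arrays that share 1 deposit, 6 of them from the mutant, thus all read 25.2 or less, so for COX26 the deposit and the groups cannot be told apart.

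**Figure D2:**
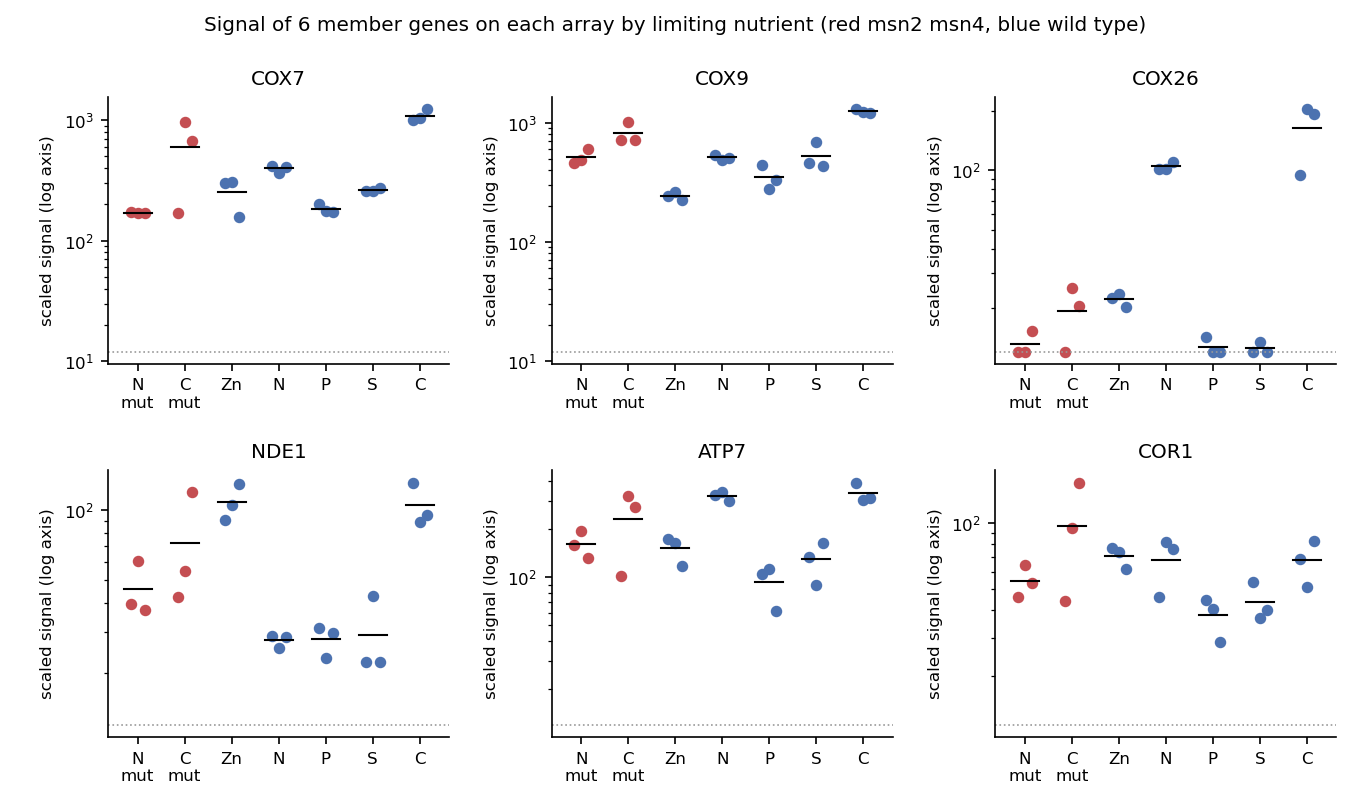
Scaled signal (log axis) of COX7, COX9, COX26, NDE1, ATP7 and COR1 on each of the 21 arrays, by limiting nutrient, with msn2 msn4 (mut) in red left of wild type in blue. Points are arrays in the order of replicates 1 to 3, horizontal lines are group means of 3 arrays and the dotted line is the floor of 12. In the wild type COX7 is highest under C limitation, NDE1 is high under Zn and C limitation, and ATP7 is high under N and C limitation. ATP7 averages 161 in the N-limited mutant, against 320 in the N-limited wild type.

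In the catalytic F1 head of ATP synthase, ATP3 (YBR039W) and ATP16 (YDL004W) fell under all 4 limitations. ATP3, the gamma subunit of the rotor shaft, gave 611, 655 and 528 under N limitation, 672, 681 and 623 under S, 775, 492 and 624 under P and 479.7, 448 and 587 under Zn limitation, against 1568, 1530.1 and 1365 under C limitation. All 12 arrays lay well under the C-limited ones, and ATP3 fell 2.49-fold, 2.26-fold, 2.4-fold and 2.96-fold. ATP16, the delta subunit, gave 588, 595 and 583 under N limitation, 647, 676 and 451 under S, 417, 314 and 276 under P and 426, 340.2 and 418 under Zn limitation, against 1363, 1172 and 1306 under C limitation. Its falls were 2.17-fold and 2.19-fold under N and S limitation and 3.86-fold and 3.25-fold under P and Zn limitation. ATP15 (YPL271W), the epsilon subunit, fell under S, P and Zn limitation (-1.34, -1.60 and -1.21 log2 units) and was not called under N limitation (log2 -0.75 ± 0.33, adjusted p = 0.108). The subunits that form the catalytic ring were called under 2 limitations or none. ATP1 (YBL099W), the alpha subunit, gave 472, 546 and 512 under N limitation, 387, 440.2 and 504 under S, 489, 450.1 and 295 under P and 481, 433 and 499 under Zn limitation, against 688, 644 and 629 under C limitation. Every one of these 12 arrays was below the C-limited arrays, but the fold, highest under P limitation at 1.63-fold, stayed below 2 and ATP1 was not called. ATP2 (YJR121W), the beta subunit that carries the catalytic sites, fell under P (-1.12 ± 0.35) and Zn limitation (-1.16 ± 0.35) and not under N (-0.45 ± 0.35) or S limitation (-0.45 ± 0.35).

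Of the 6 F0 and stalk genes, ATP17 alone was called under N limitation with arrays brought to the same trimmed mean. ATP7 (YKL016C), a subunit of the peripheral stalk, gave 323, 339 and 299 under N limitation, 134, 89.5 and 164 under S, 105, 113 and 61.5 under P and 173, 164 and 118 under Zn limitation, against 388, 302 and 312 under C limitation. The N-limited arrays overlapped the C-limited ones (log2 -0.05 ± 0.35), while S, P and Zn limitation lay below both with no overlap. In the direct comparisons ATP7 was called higher under N than under S (log2 1.35 ± 0.35, adjusted p = 0.00978) and P limitation (log2 1.83 ± 0.35, adjusted p = 0.000985), and lower under Zn than under N limitation (log2 -1.10 ± 0.35, adjusted p = 0.0375). The call against P limitation held when any single array of either group, or C-limited msn2 msn4 replicate 1, was left out. That against S limitation was lost without S replicate 2 (adjusted p = 0.0663) and, by its fold, with arrays scaled to a common median. That of Zn against N limitation was lost without any single array of either group (adjusted p = 0.0588 to 0.156). ATP5 (YDR298C), which joins the stalk to the F1 head, gave 164, 167 and 167 under N limitation, 90.6, 69.3 and 93.4 under S, 115, 73.7 and 37.9 under P and 104, 64.2 and 70.7 under Zn limitation, against 217, 155 and 192 under C limitation. Here too the N-limited arrays overlapped the C-limited ones, and ATP5 was called higher under N than under P limitation (log2 1.28 ± 0.42, adjusted p = 0.0277) but not than under S limitation (log2 0.99 ± 0.42, adjusted p = 0.0938). The call was lost without any single N-limited array or P replicate 2 or 3 (adjusted p = 0.0517 to 0.172) and under quantile or median scaling. ATP14 (YLR295C), another stalk subunit, fell 4.91-fold under P, 3.32-fold under S and 2.28-fold under Zn limitation, and under N limitation its difference of -0.74 ± 0.41 was not called.

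ATP17 (YDR377W), a small F0 subunit, was called under every limitation, with 209, 211 and 249 under N limitation, 130.4, 151 and 158 under S, 213, 113 and 117 under P and 180.4, 183 and 161 under Zn limitation, against 621, 538 and 572 under C limitation. No array overlapped the C-limited group, and the falls ran from 2.59-fold under N limitation to 4.08-fold under P limitation. ATP20 (YPR020W), which helps ATP synthase to form dimers, gave 72, 68.5 and 61 under N limitation, 24.6, 24.7 and 34.7 under S, 35.1, 20.4 and 27.4 under P and 60.02, 63.4 and 71.2 under Zn limitation, against 109, 149 and 117 under C limitation. It fell under S (4.48-fold) and P limitation (4.59-fold), and it was called higher under Zn than under S (log2 1.23 ± 0.42, adjusted p = 0.0332) and P limitation (log2 1.26 ± 0.42, adjusted p = 0.0294). Both of these calls were lost without any single Zn-limited array (adjusted p = 0.0639 to 0.0931) and under quantile or median scaling. ATP4 (YPL078C), the main stalk subunit that is anchored in the membrane, fell under S and P limitation (-1.16 and -1.46 log2 units) and was not called under N (-0.80) or Zn limitation (-0.73).

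Fewer of the genes were called between the 4 limitations with glucose in excess. P limitation compared with S limitation, 2 groups of 1 deposit, gave no member called by limma in either direction, 3 with an unadjusted p under 0.05, and a background of 2.33% lower and 1.9% higher calls. The median difference of the members was -0.26, against -0.08 over all genes, and the largest were those of ATP16 (log2 -0.82 ± 0.34, adjusted p = 0.163) and SDH3 (log2 -0.80 ± 0.27, adjusted p = 0.0822). A p that misses the threshold does not show that the 2 limitations act alike on these genes. N limitation compared with S limitation gave 4 higher members (QCR8, COX26, ATP7 and ATP20), beside 7.86% higher and 3.26% lower among all genes. N limitation compared with P limitation gave 8 (SDH3, QCR7, COX7, COX26, ATP5, ATP7, ATP14 and ATP20), beside 11.6% higher and 3.02% lower. No member was called lower by limma in either, and 9 and 16 members had an unadjusted p under 0.05. QCR8 read 28.7, 31 and 25.1 under N limitation, against 12, 12 and 14.8 under S limitation, most of the last at the floor. The all-gene medians of these comparisons were themselves 0.17 and 0.28, with member medians of 0.25 and 0.56. With a common median the member medians were -0.12 and 0.09, and the all-gene medians -0.16 and -0.14. The counts depended on the scaling: when arrays were scaled to a common median they were 2 and 3, and 1 member was then lower under N than under S limitation. Leaving out S replicate 2 left 1 call against S limitation, while against P limitation leaving out P replicate 2 left 4, and leaving out P replicate 3 or N replicate 2 left 5. Zn limitation compared with N limitation gave 4 lower members (SDH4, COX9, COX26 and ATP7), beside 3.37%, and 1 higher (NDE1), beside 4.52%. Against S limitation Zn limitation gave 1 lower (COX9), beside 5.15%, and 2 higher (NDE1 and ATP20), beside 10.6%. With a common median the balance turned to 4 lower and 1 higher, and with quantile normalisation it was 1 and 1. Against P limitation it gave none lower by limma, with 12 members at an unadjusted p under 0.05 in either direction, and 4 higher (NDE1, COX8, ATP14 and ATP20), beside 3.28% and 11.9%. The last count was 1 when any single Zn-limited array or P replicate 3 was left out and 2 without P replicate 2. Against S limitation the count was 1 without S replicate 2, and against N limitation it was 3 without Zn replicate 2 or N replicate 2.

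Ordered by group mean, 32 of the 35 genes were highest under C limitation, as were 21.8% of all genes. The exceptions were NDE1 (108 ± 19.4 under Zn against 105 ± 22.8 under C limitation) and COR1 (70.6 ± 8.08 under Zn against 67.4 ± 15.9 under C limitation, both mean ± SD, n = 3), whose groups overlapped, and QCR8 near the floor. The lowest mean fell under P limitation for 21 genes, under Zn limitation for 7, under S limitation for 4 and under N limitation for 3, where it fell for 30.8%, 17.6%, 18% and 9.49% of all genes. With arrays scaled to a common median the lowest mean fell under P limitation for 10 members, Zn for 13, S for 3 and N for 9, beside 14%, 30.3%, 12.7% and 21.8% of all genes, so this order rests on the scaling. The member median of Zn against P limitation was 0.33 and turned to -0.07 with a common median. None of the 35 genes was called between P and S limitation, so the order of P and S limitation is not settled for any of them.

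**Figure D3:**
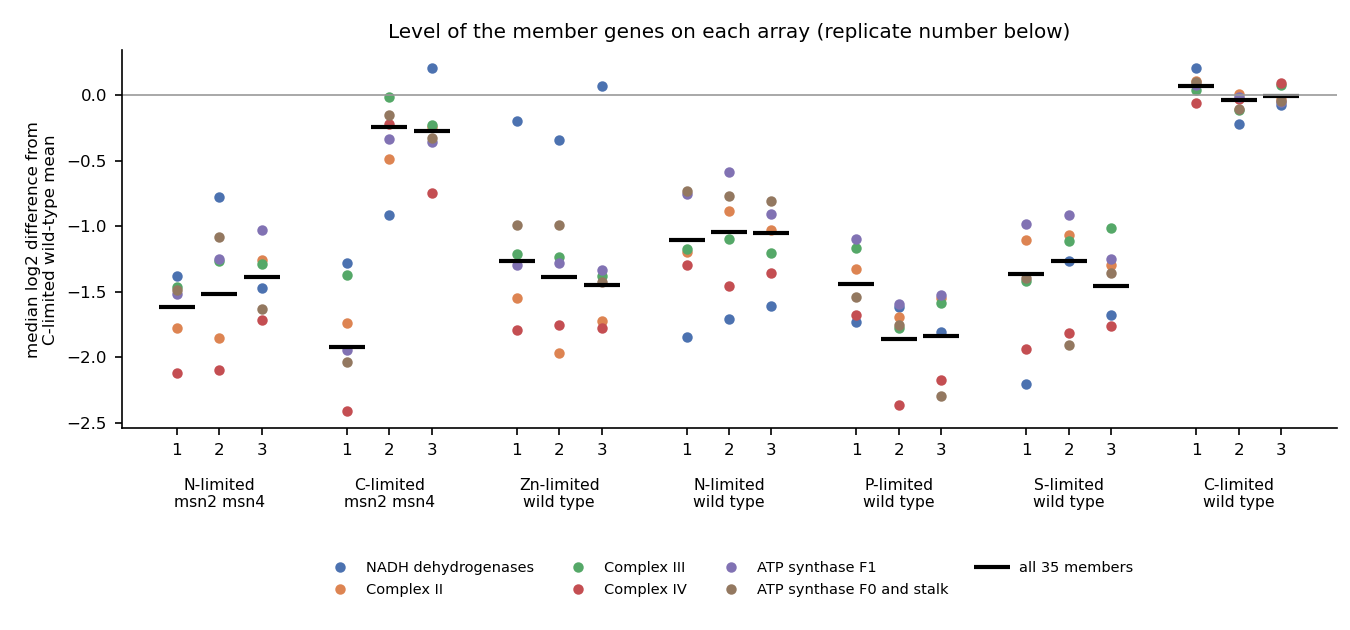
Median log2 difference from the C-limited wild-type mean (vertical axis) on each array, over all 35 genes (black bars) and over the genes of each complex (coloured points), with replicate numbers below. The C-limited msn2 msn4 replicate 1 lies at -1.92, below the N-limited msn2 msn4 arrays at -1.62 to -1.39, while the other C-limited msn2 msn4 arrays lie at -0.24 and -0.28.

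In the msn2 msn4 mutant all 35 genes averaged lower under N than under C limitation, within 1 deposit, as 50.9% of all genes did. With all arrays none was called by limma in either direction, 18 had an unadjusted p under 0.05, the median difference was -0.70 beside -0.01 over all genes, and only 0.0183% of all genes were called lower and 0.0366% higher. The outcome turned on replicate 1 of the arrays labelled C-limited. It read below both other arrays of its group for 34 of the 35 genes, against 51.7% of all genes, and at or below the highest N-limited mutant array for 33, against 83.8%. The other 2 arrays of the group lay above all N-limited mutant arrays for 32 genes, against 23.8%. Without that array 24 genes fell, 17 of the 24 electron transport genes and 7 of the 11 ATP synthase genes, against 3.19% of all genes called lower, and the median was -1.18 beside -0.07 over all genes. COX7 gave 173, 169 and 169 under N limitation in the mutant, against 169, 959.8 and 666 under C limitation, the first value being that of the array in question, and fell 4.7-fold without it (log2 -2.23 ± 0.23, adjusted p = 7.39e-06). QCR10 gave 72, 77.8 and 78 under N limitation, against 50.7, 346 and 285 under C limitation, with a fall of 4.14-fold on the same terms. ATP20 gave 23.8, 33.9 and 26.1, against 17.3, 104 and 70.7, and ATP17 121, 107 and 151, against 130.1, 442 and 273, with falls of 3.11-fold and 2.78-fold. In each of these genes the N-limited arrays sat at or near the level of replicate 1 and far below replicates 2 and 3. COR1 and CYT1 were called in the mutant without that array (log2 -1.15 ± 0.29, adjusted p = 0.018 and log2 -1.92 ± 0.32, adjusted p = 0.000858). With all arrays neither was called between N and C limitation of the wild type. That wild-type comparison gave 19 calls without the array and 18 with it, so these calls of the 2 strains come from unlike fits. Wild-type means under N and C limitation were 67.7 and 67.4 for COR1, and 31.3 and 73.8 for CYT1. Whether the mutant differed from the wild type in this response was tested as the difference of the mutant effects, given below.

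**Figure D4:**
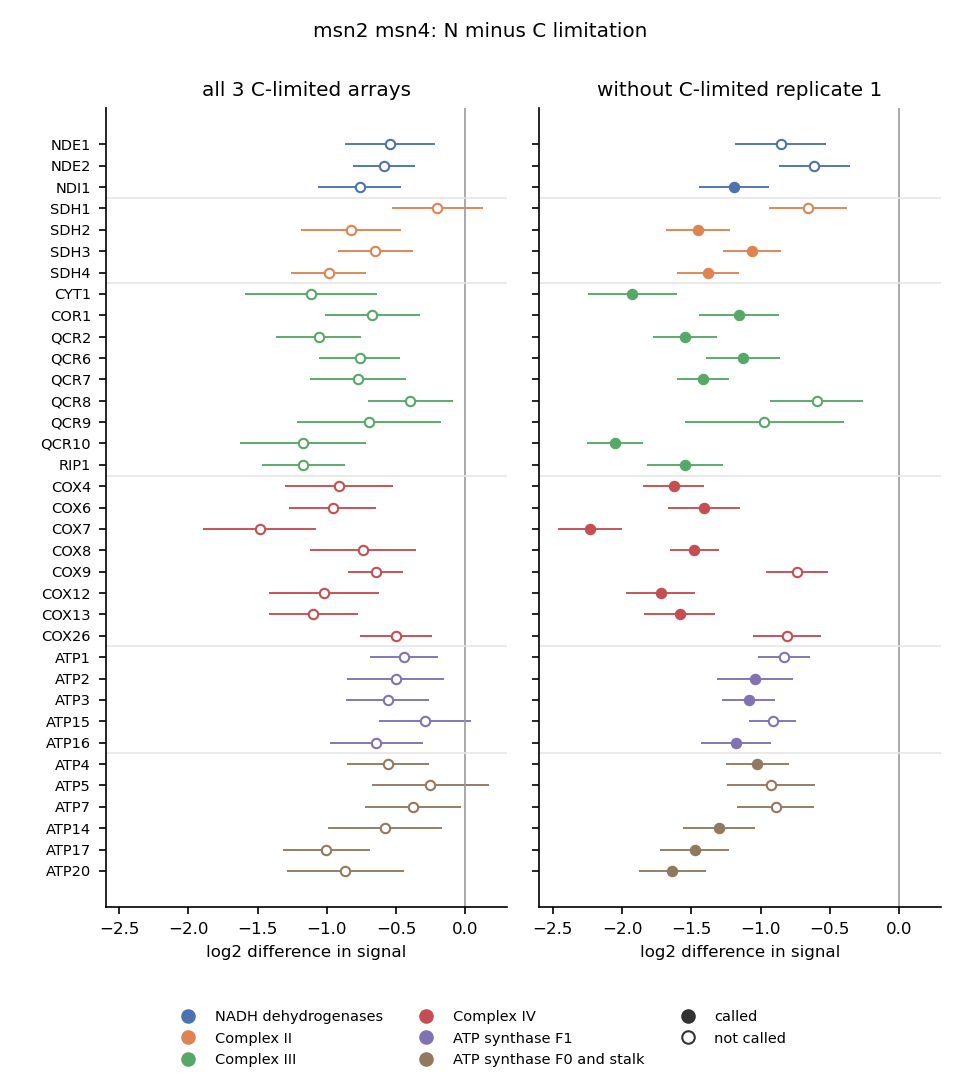
Log2 difference in signal between N and C limitation in msn2 msn4 for the 35 genes, with all arrays (left) and without C-limited replicate 1 (right), with bars of 1 standard error from limma. All points lie left of 0 in both panels, and 24 are filled, that is called, on the right only.

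Compared with the wild type, the mutant under C limitation had 6 lower members (NDI1, SDH3, COX13, COX26, ATP16 and ATP17), beside 1.98% of all genes, and none higher by limma, beside 2.05%, with 20 members at an unadjusted p under 0.05 in either direction. Without the array in question COX26 alone was called (log2 -2.77 ± 0.25, adjusted p = 1.81e-06), beside 1.37%, and the member median was -0.26 without it and -0.74 with it. Without replicate 2 of that group 18 members were called and without replicate 3 the count was 11. Leaving out a C-limited wild-type array left 2 or 3 calls. When only the arrays of these 2 groups were fitted, all 6 calls were lost (adjusted p = 0.0808 to 0.286, limma). COX13 (YGL191W), a subunit known to regulate complex IV, gave 96.6, 315 and 222 in the mutant, against 552, 568 and 462 in the wild type, and all 3 mutant arrays lay below the wild type. With replicate 1 out, its fold of 1.99 just missed the minimum of 2 (log2 -0.99 ± 0.26, adjusted p = 0.0371). Under N limitation 5 members were lower in the mutant (SDH3, QCR8, COX7, COX26 and ATP20), beside 5.49% of all genes, and none was higher by limma, beside 2.34%, with 12 at an unadjusted p under 0.05. The member median was -0.40, beside -0.14 over all genes. The count was 2 when arrays were scaled to a common median or N-limited mutant replicate 2 was left out, and 3 without any N-limited wild-type array or N-limited mutant replicate 1. SDH3 gave 202, 162 and 215 in the mutant under N limitation, against 379, 387 and 414 in the wild type (log2 -1.04 ± 0.27, adjusted p = 0.0152). COX7 gave 173, 169 and 169, against 419, 367 and 406 (log2 -1.22 ± 0.41, adjusted p = 0.0461). Neither overlapped between strains, and both calls were lost under some of the settings above. The deposits differ between strains, so strain and deposit cannot be told apart in these comparisons, and the actin ratio was 1.24 to 1.42 in the C-limited and 1.18 to 1.67 in the N-limited mutant, beside 1.05 to 1.20 and 1.18 to 1.23 in the wild type. The difference of the mutant effects between N and C limitation was not called for any member by limma, with all arrays (5 with an unadjusted p under 0.05) or without the array in question (8). Beside these, 1.03% of all genes were called lower and 0.476% higher with all arrays, and 1.76% and 0.714% without that array. With all arrays the largest was that of NDE1 (log2 1.36 ± 0.46, adjusted p = 0.148, and log2 1.05 ± 0.44, adjusted p = 0.175 without the array in question), which read 39.7, 60.3 and 37.3 in the mutant and 28.8, 25.6 and 28.6 in the wild type under N limitation, and 42.5, 54.7 and 119 in the mutant and 131, 88.6 and 95.2 in the wild type under C limitation.

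Other genes of oxidative phosphorylation gave a mixed picture beside these subunits. Of all genes 3.85%, 6.17%, 7.73% and 5.71% were called lower under N, S, P and Zn limitation. Called higher were 6.54%, 4.67%, 3.94% and 9.05%. List counts near these shares, such as 2 of 37 under N or 1 of 12 under Zn limitation, are not read as results about the list. Of 6 further ATP synthase subunits and inhibitors 4, 5, 5 and 6 fell under N, S, P and Zn limitation. INH1, which inhibits ATP hydrolysis by the enzyme, gave 133, 166 and 190.0 under N limitation, 103, 129 and 184 under S, 53.1, 90.6 and 111 under P and 55.9, 62 and 73.2 under Zn limitation, against 506, 551 and 557 under C limitation (each from the lowest to the highest array). It stood lowest under Zn limitation, where it fell 8.49-fold. Of 7 genes for cytochrome c, Cox5 and the ADP/ATP carrier, 3, 3, 4 and 2 fell. CYC1, the main cytochrome c, was at the floor on all 9 N-, S- and P-limited wild-type arrays, and read 137, 141 and 144 under Zn and 229, 237 and 272 under C limitation. Of 37 assembly and translation factors of complexes II to IV, 2, 11, 16 and 9 fell, and COX19, a copper metabolism factor, rose under Zn limitation (log2 1.26 ± 0.40, adjusted p = 0.0243). COX17, which carries copper to complex IV, showed the largest of these falls (-1.99 ± 0.37 under S, -2.16 ± 0.37 under P and -1.65 ± 0.37 under Zn limitation). Of 12 factors for ATP synthase, 5 fell under P and 1 under Zn limitation and none under N (4 with an unadjusted p under 0.05) or S limitation by limma, and NCA3, linked to expression of the mitochondrial ATP6 and ATP8 genes, rose under S (3.08-fold) and Zn limitation (14.6-fold). None of 9 ubiquinone synthesis genes was called by limma in the 4 comparisons, and 3, 4, 3 and 2 had an unadjusted p under 0.05. Of 8 heme synthesis genes, HEM3 fell under N, P and Zn limitation (-1.98, -1.36 and -1.89 log2 units), and HEM14 rose under P limitation (1.05). Of 7 mitochondrially encoded genes, 1 fell under N, 2 under S and 1 under P limitation. Under Zn limitation none did by limma, and none had an unadjusted p under 0.05. Their summed signal ranged over 1796 to 2097 under N, 1081 to 3475 under S, 2584 to 4263 under P and 2685 to 3410 under Zn limitation. Under C limitation it ranged over 4706 to 6467, so few calls do not show that these genes were unchanged. Of 5 other electron donors, DLD1, a lactate dehydrogenase, fell under all 4 limitations, GUT2, a glycerol phosphate dehydrogenase, under P limitation, and CYB2, another lactate dehydrogenase, rose under Zn limitation (2.8-fold). Of 3 paralogues of complex II subunits SHH4 and SDH9 rose under N limitation and SHH3 under Zn limitation (4.39-fold).

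Of 9 regulators, HAP4, the activator subunit of the complex that drives respiratory genes, fell under N (-1.57 ± 0.41), S (-1.93 ± 0.41) and P limitation (-1.88 ± 0.41). Its signal was 52.1, 61.1 and 64.5 under N limitation, 39, 42.9 and 56.9 under S, 43.5, 45.4 and 53.8 under P and 95.2, 114 and 126 under Zn limitation, against 160.5, 168 and 198 under C limitation. The Zn-limited arrays lay between the C-limited arrays and the rest, and the difference was not called (log2 -0.65 ± 0.41, adjusted p = 0.255). In the mutant HAP4 read 45.9, 55.2 and 60.3 under N and 30.0, 152 and 161 under C limitation, the lowest C-limited value being that of replicate 1. ROX1, a repressor of hypoxic genes, rose at least 5.62-fold under Zn limitation. Of the isoform and inhibitor genes, CYC7, the minor cytochrome c, was lower in the mutant than in the wild type under C (5.82-fold) and N limitation (8.3-fold). COX5B, the isoform of Cox5 made without oxygen, fell 2.59-fold and 4.01-fold, and STF2, a stabilising factor of the inhibitor complex, 7.22-fold and 8.59-fold. Without C-limited msn2 msn4 replicate 1 the C-limited falls were 4.93-fold for CYC7, 2.76-fold for COX5B and 5.4-fold for STF2. All 3 were called. CYC7 averaged only 14.8 in the N-limited mutant, near the floor. Of all genes 1.98% were called lower in the mutant under C limitation (1.37% without that array) and 5.49% under N limitation. How many genes of the isoform and inhibitor lists were called there is not given here. Strain and deposit cannot be told apart in these comparisons.

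Members with more than 1 probe set could be read a second time. For ATP14 a second probe set averaged 529 ± 40.5 under N limitation, 273 ± 92.1 under S, 182 ± 44.9 under P and 346 ± 55.6 under Zn limitation, against 805 ± 23.0 under C limitation (SD, n = 3 each). For RIP1 a control probe set of the array averaged 182 ± 12.96 under N limitation, 93.2 ± 30.5 under S, 63.7 ± 31.0 under P and 135 ± 16.1 under Zn limitation, against 355 ± 94.5 under C limitation. Both had lower means under each limitation than under C limitation. Under N limitation the RIP1 control probe set was not called (log2 -0.93, adjusted p = 0.119, against log2 -1.59 for the probe set used above), so this probe set does not bear out the call of RIP1 under all 4 limitations. It also read higher under N than under P (log2 1.66, adjusted p = 0.00689, limma) and under Zn than under P limitation (log2 1.22, adjusted p = 0.0345), where the other probe set gave 0.17 and 0.06.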

How the data were processed

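Transcript abundance was measured on 21 single-channel Affymetrix YG-S98 arrays, in 7 groups of 3. The deposited values are intensity signals, 1 per probe set, computed by the authors with GCOS per the submitters' processing notes. Its version and scaling settings are not given in the sources used here. Of 9335 probe sets 60 are controls, 6504 have 1 gene and 328 several, and genes were named through the platform annotation, keeping the brightest probe set of each gene. Arrays were brought to the same mean after trimming 2% at each end, since the deposited trimmed means differed between deposits. Signals under 12 were set to 12, and 195 genes at this floor on every array were left out, which leaves 5461. Log2 signals entered linear models in limma 3.58.1 (R 4.3.3), with 1 mean per group over all arrays, and p-values were adjusted by Benjamini-Hochberg over the genes tested. The fit was tested on simulated data. Calls needed a fold of 2 or more together with an adjusted p below 0.05. A fold against arrays at the floor is a lower bound. All members could be named. From other lists, the called genes with the largest change and the nearest genes not called could be named. The members and lists were chosen with earlier results of these data known. Alternatives covered quantile, median and no scaling, another floor, no filter, fewer arrays, a replicate block, no fold minimum and leaving out each array. The number of arrays, the floor and the scaling limit precision. Protein and promoter sequences were not used here.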

Additional observations from a re-analysis of the deposited data

How the results depend on the processing

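The counts of called members against C limitation kept their direction under every alternative run but not their size. In the order N, S, P and Zn they were 18, 26, 31 and 25 in the main fit. Quantile normalisation gave 20, 26, 30 and 26. A common median gave 26, 25, 26 and 28, beside 405, 280, 274 and 531 lower calls among all genes. Signals as deposited gave 13, 35, 35 and 6, beside 153, 1645, 2049 and 64. Most counts between the other groups moved with the scaling too. With quantile normalisation the counts were 2 for N against S, 5 for N against P and 1 for Zn against P limitation. With arrays scaled to a common median they were 2 for N against S, 3 for N against P, 5 for Zn against S (4 lower and 1 higher), 1 for Zn against P limitation and 2 for the mutant against the wild type under N limitation. With signals as deposited they were 6 for Zn against C, 20 for N against S, 27 for N against P, 2 for Zn against N, 27 for Zn against S and 33 for Zn against P limitation, and 29 and 28 for the mutant against the wild type under C and N limitation. Among all genes 2861 and 3239 were then called higher for N against S and P limitation, and 4398 and 4657 for Zn. For the mutant 1293 and 2767 were called lower under C and N limitation. Zn against C limitation had 64 lower, and Zn against N limitation 52 lower and 1037 higher. These counts are thus not read as a result about the members. In that setting COX9 turned from lower to higher under Zn than under S limitation, at 0.40 log2 units (adjusted p = 0.0931, limma). A floor of 32 gave 1 for Zn against P limitation and 3 for the mutant under N limitation, and keeping all genes gave 2 and 3. Fitting only the arrays compared gave 0 for the mutant under C limitation. No fold minimum gave 5 for Zn against S and 7 for Zn against P limitation. Replicate numbers did not pair the samples: same-numbered deviations correlated at -0.525 to 0.322 over 63 pairs, 11 of them over 0.1. A replicate block gave 17, 26, 31 and 24 calls for N, S, P and Zn against C limitation and 2 for Zn against P limitation. Only arrays of the groups compared and C-limited msn2 msn4 replicate 1 were left out for the ranges that follow. Leaving out 1 array at a time gave 13 to 19 calls for N, 21 to 27 for S, 26 to 31 for P and 19 to 25 for Zn against C limitation. It gave 0 to 0 for P against S, 1 to 4 for N against S, 4 to 9 for N against P, 3 to 6 for Zn against N, 1 to 3 for Zn against S and 1 to 6 for Zn against P limitation. It gave 1 to 18 and 2 to 6 for the mutant under C and N limitation, 0 to 24 for N against C limitation in the mutant and 0 to 1 for the difference of the mutant effects, where C-limited mutant replicate 3 left out gave the 1. Over single genes, 135 calls were recomputed 2287 times, of which 2006 kept the call, 280 lost it and 1 turned. The cause of these changes was not tested.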
